A study of Mus musculus with 2 samples.

Results

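Claudins, classical and other numbered cadherins and the adhesion molecule Epcam were followed across the cell classes of the mouse utricle, a gravity-sensing organ of the inner ear. The members were all genes of the deposited matrices whose symbol is Cldn or Cdh followed by digits, without Cdh23, together with Epcam, which gave 46 genes (23 claudins, 22 cadherins and Epcam) of 31053. Sensory epithelia of wild-type mice were taken from embryos on day 14 (E14) and from pups on postnatal day 2 (P2), without any treatment of the animals, and single cells were profiled with a droplet-based 3′ kit. The otolithic membranes were removed by hand, the epithelia were detached with the protease thermolysin, which acts on the basement membrane, and the cells were separated with Accutase at both ages. The paper's methods give C57BL/6J as the wild-type strain and mice of both sexes for its experiments in general, and tissue of several animals was pooled, so that animals cannot be told apart within a library. Each age was 1 library, so that age and library cannot be told apart, no value has a replicate check, and no p-value is given.

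Epithelial sheets are sealed and held together by junctions that stack along the lateral membrane. Claudins are membrane proteins with several transmembrane passes that form the strands of tight junctions, where they act as barriers or as pores for ions, and the combination of claudins sets which ions pass between the cells. Cadherins are calcium-dependent adhesion molecules that bind the same or related cadherins on the neighbouring cell and are anchored to actin through catenins. EpCAM is an epithelial cell adhesion glycoprotein that associates with claudin-7 and is cleaved by the protease matriptase. In the inner ear the tight junctions at the apical surface of hair cells and supporting cells separate potassium-rich endolymph from perilymph, and loss of claudin-14 or claudin-9 causes deafness.

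Promoter windows of Epcam, Cdh1 and the claudins described by name were searched for motifs of factors that act on epithelial genes, and the windows that hold a match are printed. The windows, from RefSeq on GRCm38.p6, run from 250 bases before to 50 bases after an annotated gene start. The search covered both strands for the E-box CAGGTG, a sequence bound by Snail and Zeb family repressors that reads CACCTG from the opposite strand, and for AACCGGTT, which reads the same on both strands and is the core site of Grainyhead-like factors. Of the 14 genes searched (Epcam, Cdh1 and the 12 claudins described by name), 10 matched by symbol with 14 windows; the others were Cdh1, Cldn8, Cldn9 and Cldn23. The E-box was in 6 of the 14 windows, from 6 genes, and in 20.2% of all 32851 windows of the same length, and the Grainyhead-like site was in none of the 14 windows and in 0.146% of all. A match is a description of the letters in the window and says nothing of binding. In the sequences, written 5′ to 3′ on the strand of the gene, capitals mark the E-box, and Cldn7 and Cldn14 are shown by the second of their windows. The match decided which windows are printed: the 8 without it (Cldn5, Cldn11, Cldn22, both of Cldn10, the first of Cldn7 and the other two of Cldn14) are left out.
Epcam, chr17:87635729-87636028, plus strand: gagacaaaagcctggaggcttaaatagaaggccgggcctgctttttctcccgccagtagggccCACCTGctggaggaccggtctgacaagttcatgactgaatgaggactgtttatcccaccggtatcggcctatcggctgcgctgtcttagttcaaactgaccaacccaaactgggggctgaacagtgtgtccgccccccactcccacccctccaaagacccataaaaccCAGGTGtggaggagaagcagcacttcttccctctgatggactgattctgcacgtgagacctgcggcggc
Cldn3, chr5:134985964-134986263, plus strand: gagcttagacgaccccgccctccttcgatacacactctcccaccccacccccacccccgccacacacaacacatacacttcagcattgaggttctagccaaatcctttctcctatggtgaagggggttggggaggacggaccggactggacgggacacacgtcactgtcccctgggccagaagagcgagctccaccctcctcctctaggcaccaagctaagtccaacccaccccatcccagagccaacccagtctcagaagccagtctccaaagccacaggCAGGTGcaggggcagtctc
Cldn4, chr5:134946885-134947184, minus strand: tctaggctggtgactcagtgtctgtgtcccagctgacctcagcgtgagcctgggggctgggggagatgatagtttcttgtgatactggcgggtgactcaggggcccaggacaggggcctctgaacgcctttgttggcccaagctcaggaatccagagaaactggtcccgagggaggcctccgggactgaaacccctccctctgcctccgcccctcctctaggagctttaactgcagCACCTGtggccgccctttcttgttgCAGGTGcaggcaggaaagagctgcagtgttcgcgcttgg
Cldn6, chr17:23679115-23679414, plus strand: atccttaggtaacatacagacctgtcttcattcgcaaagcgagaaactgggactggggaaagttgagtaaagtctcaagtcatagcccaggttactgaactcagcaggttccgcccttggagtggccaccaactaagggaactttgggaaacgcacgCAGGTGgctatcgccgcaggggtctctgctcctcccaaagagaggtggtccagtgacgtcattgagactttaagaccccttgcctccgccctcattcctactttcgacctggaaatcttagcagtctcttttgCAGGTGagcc
Cldn7, chr11:69965171-69965470, plus strand: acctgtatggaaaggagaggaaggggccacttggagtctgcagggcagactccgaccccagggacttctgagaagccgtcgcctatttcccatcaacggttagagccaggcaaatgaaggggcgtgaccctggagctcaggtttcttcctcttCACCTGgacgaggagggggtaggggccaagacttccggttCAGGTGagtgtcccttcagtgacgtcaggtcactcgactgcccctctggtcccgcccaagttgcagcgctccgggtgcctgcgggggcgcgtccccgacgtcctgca
Cldn14, chr16:93929768-93930067, minus strand: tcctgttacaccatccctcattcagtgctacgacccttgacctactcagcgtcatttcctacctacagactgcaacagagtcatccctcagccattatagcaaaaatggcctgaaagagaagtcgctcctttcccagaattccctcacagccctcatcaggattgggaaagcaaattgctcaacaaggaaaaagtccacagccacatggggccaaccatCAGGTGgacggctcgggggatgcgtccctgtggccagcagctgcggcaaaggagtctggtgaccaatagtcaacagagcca

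Transcripts were counted by unique molecular identifiers (UMIs), 122892080 over 15636 barcodes at E14 and 57003553 over 6251 at P2. After a filter and removal of putative doublets, 10138 and 3877 cells remained, and 23 barcodes were shared between the libraries. Cells were clustered in each library without the members and without their junction partners, and clusters were named from marker genes. The hair cell-like class had 204 cells at E14 and 726 at P2, the supporting cell-like class 1186 and 682, and the nonsensory epithelial-like class 751 and 125. The E14 tissue, although labelled as sensory epithelium, also held 3824 mesenchymal cell-like cells (37.7%) and smaller glial-like, endothelial-like, pericyte-like, melanocyte-like, immune-like and red blood cell-like classes. At P2 the 32 mesenchymal cell-like cells were the 1 named class outside the epithelium. Clusters with 31.8% of the E14 cells and 59.6% of the P2 cells had no name under the rule used and entered no comparison between classes. Among them at P2 were clusters of 271, 165 and 101 cells with 7, 6 and 5 hair cell markers. They had few UMIs per cell (medians of 1529, 1810 and 3067) and no hair cell marker among their leading genes. With them the P2 hair cell-like class would hold 1263 cells in place of 726. The nonsensory class was led by different genes at the ages (Sfrp5 and Wnt3, Rspo3 and Bpifb3, and Pyy and Prss56 at E14; Nupr1 and Prss56, Kcne1 and Bpifb3, and Lcn2 and Wnt3 at P2). In the E14 supporting cell-like class, 1 cluster of 49 cells had a summed level of the 12 mesenchymal cell markers of 6056 UMIs per 1000000 (CPM), and 1 of 439 cells had a median of 1429 UMIs per cell. Genes typical of the cristae, the sensory patches of the semicircular canals, exceeded those typical of the macula in clusters of this class, and 859 of its 1186 cells remained without them; P2 had no such supporting cell-like cluster.

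A level is the UMIs of a gene per 1000000 UMIs of all cells of a class, with an exact 95% Poisson interval that covers counting error and not the variation between animals. These are counts of 3′ ends, so levels were not divided by gene length, and levels of different genes set side by side are captured UMIs on that scale. In a comparison a gene with at least 10 UMIs on 1 side was tested in the sense of being counted, and it was called when the ratio of the levels was at least 2 or at most 0.5; a side without a UMI was set to 3 counts, which makes the ratio a bound. Ratios carry exact 95% intervals for counting error. Of the 46 members, 26 reached 100 UMIs and 10 CPM in a class at 1 age and are described by name.

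Epcam had the most UMIs of the members in every epithelial-like class, except in the P2 hair cell-like cells, where Cldn9 had more (522 CPM (509–535)). At E14 Epcam was at 480.1 CPM (454–507) in hair cell-like, 2089.9 CPM (2064–2116) in supporting cell-like and 2067 CPM (2041–2093) in nonsensory epithelial-like cells. At P2 the levels were 485 CPM (473–497), 2718 CPM (2690.1–2747) and 2449 CPM (2380.0–2519) in the same order. The other named E14 classes lay between 4.49 CPM in endothelial-like and 109 CPM in red blood cell-like cells, so that the epithelial-like and other ranges did not overlap. The P2 mesenchymal cell-like cells had 397 CPM (295–524) from 50 UMIs, close to the P2 hair cell-like level.

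**Figure D1:**
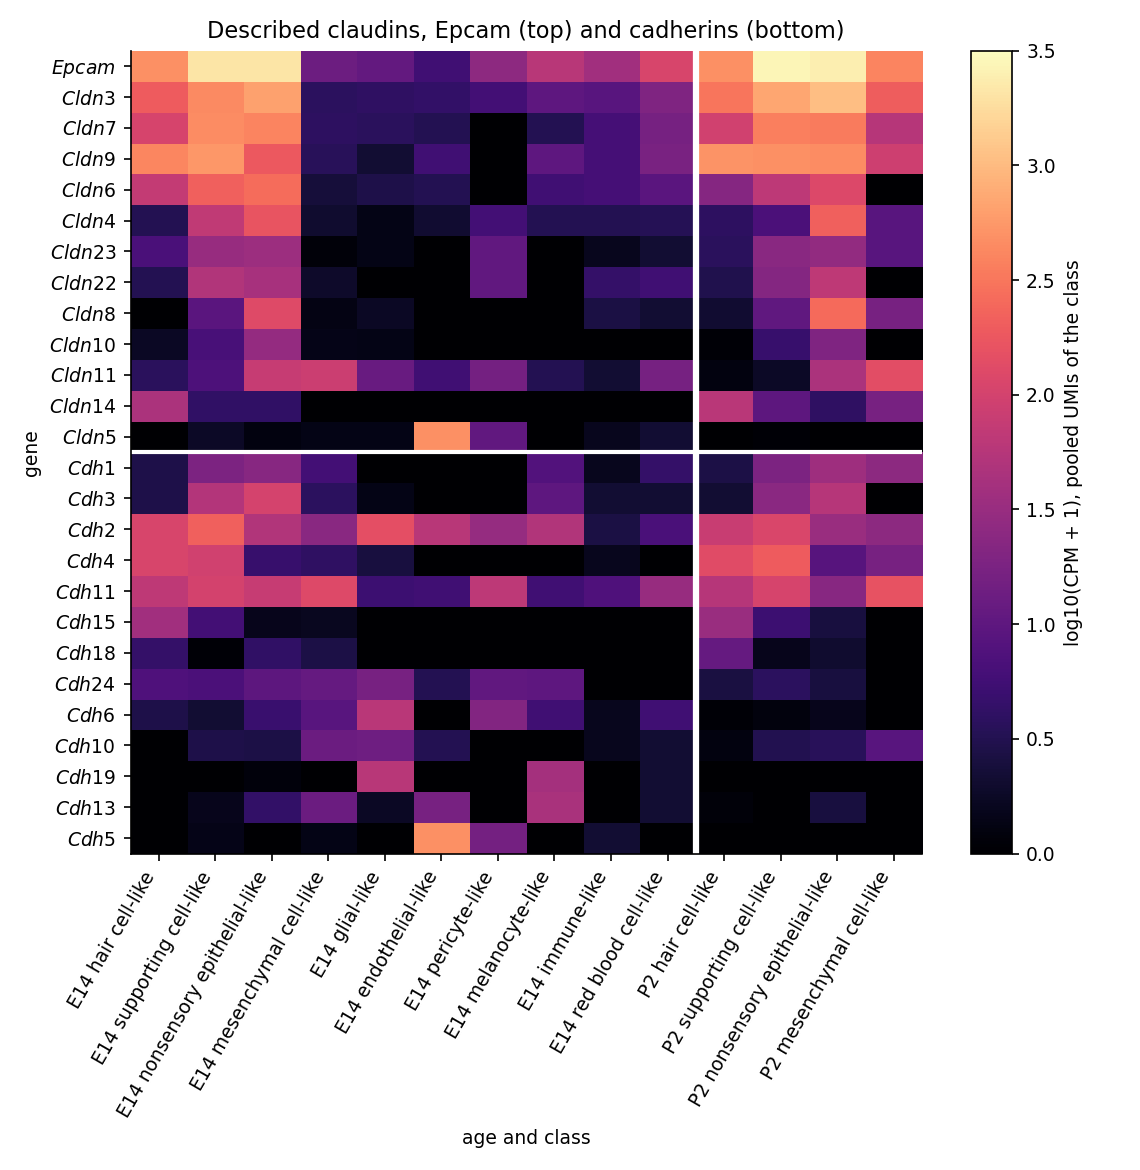
Levels of the 26 described members (rows; Epcam and claudins above the white line, cadherins below) in the named classes at E14 (left block) and P2 (right block), as log10 of pooled CPM plus 1 on a colour scale from 0 to 3.5. Epcam, Cldn3, Cldn7, Cldn9 and Cldn6 are bright in the epithelial-like columns, while Cldn5 and Cdh5 are brightest in the E14 endothelial-like column.

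The 3 epithelial-like classes were pooled and compared with all other named cells at E14, to ask which junction genes mark the epithelium. Of 37 members with enough UMIs, 21 were at least 2-fold higher, against 20.9% of all genes counted, and 11 were at least 2-fold lower, against 14.9%. Among claudins 12 of 17 were higher and 3 lower, and among cadherins 8 of 19 were higher and 8 lower. The median log2 ratio of the members was 2.08, and that of all genes 0.12.

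The most abundant epithelial members had ratios that were close to each other. Cldn3, a barrier-forming claudin of many epithelia, was at 503 CPM in epithelial-like and 3.52 CPM in other cells, a ratio of 143 (120.0–172). Cldn7, the claudin that EpCAM binds, had a ratio of 119.9, Cldn6, a claudin of embryonic epithelia, one of 122 (95.3–158), and Epcam itself one of 117 (108–128). Cldn9, a claudin of the cochlear and vestibular sensory epithelium, had a ratio of 125 (103–152). These 5 genes therefore lay within a narrow band of ratios in spite of levels between 221 and 1914 CPM. In E14 mesenchymal cell-like cells Cldn3, Cldn6, Cldn7 and Cldn9 had 21.92%, 10.96%, 23.56% and 20.27% of the UMIs of Epcam. The same percentages were 21.11%, 10.18%, 22.03% and 26.54% in supporting cell-like cells and 30.87%, 12.74%, 19.13% and 8.78% in nonsensory epithelial-like cells. The part of free RNA in the levels of the other cells, and so in these ratios, was not tested.
Cldn8, which limits cation passage in tight epithelia, had a ratio of 136 (83.6–239), Cldn23 116 (61–256) and Cldn4 96.3 (70.2–136). Cldn24 had a ratio of 140.0 (24.6–5585), which rests on 101 UMIs against 1. Cldn14 was without a UMI in the 4772 other cells, for a ratio of at least 88.3. Cldn10 and Cldn22 followed with 39.1 (23–72.2) and 38.3 (27.8–54.2), and Cldn1 with 15.8 (7.35–40.7).
Among cadherins the largest ratios of members with over 100 UMIs were those of Cdh3, P-cadherin, at 28.1 (22.7–35.2), and Cdh4, R-cadherin, at 21.2 (17.2–26.4). Cdh15, M-cadherin, had a ratio of 12.4 (7.6–21.5). Cdh1, E-cadherin, the textbook cadherin of epithelia, had a ratio of 4.24 (3.52–5.13), close to that of Cdh2, N-cadherin, at 4.15 (3.88–4.45). The low-count cadherins Cdh9, Cdh8 and Cdh20 were higher too, at 86, 6.93 and 3.24.

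The members described by name that were lower in the epithelial-like cells had their highest level in a class outside the epithelium. Cdh5, VE-cadherin, and Cldn5, the claudin of blood vessel walls, each had 428 UMIs in the 113 endothelial-like cells, 481 CPM (436–529), and at most 14.8 and 9.84 CPM in the other classes, both in pericyte-like cells. Their ratios of epithelial-like over other cells were 0.0156 (0.00503–0.0366) and 0.0374 (0.0192–0.066). The endothelial-like cluster had a median of 1810 UMIs per cell, and when shallow clusters, that one among them, were left out the Cldn5 ratio was within 2-fold.
Cdh19, a cadherin of neural crest derived glia, was at 58.9 CPM (50–68.9) in glial-like and 39 CPM (22.7–62.5) in melanocyte-like cells, both classes of neural crest origin, and at no more than 1.16 CPM elsewhere. Cdh6 was highest in the glial-like cells too, at 59.2 CPM (50.3–69.3), with 19.7 CPM in pericyte-like cells and at most 3.93 CPM in the epithelial-like classes. Cdh2 reached 146 CPM (132–162) in glial-like cells, which was above the 109.7 CPM of hair cell-like cells and below the 215 CPM of supporting cell-like cells.
Cdh11, the cadherin of mesenchyme and bone, was shared between tissues. It was at 123 CPM in E14 mesenchymal cell-like cells and at 101, 77.2 and 64.9 CPM in supporting cell-like, nonsensory epithelial-like and hair cell-like cells, and its ratio of 0.852 (0.808–0.898) was not called. Cldn11, which forms the tight junctions of myelin and of basal cell barriers, was likewise not called, at 0.53 (0.492–0.572), since it was high in the mesenchymal cell-like cells (84 CPM) and in the nonsensory epithelial-like cells (76.4 CPM) and low in hair cell-like cells (2.64 CPM). Among the 5 mesenchymal cell-like clusters Cldn11 ranged from 14.4 to 386 CPM, and the cluster led by Aspn and Mgp that had the highest level also had the highest Cdh11 (339.7 CPM) and Cdh13 (62.1 CPM).
Cdh13, T-cadherin, which is held by a lipid anchor, had a ratio of 0.16 (0.114–0.219) and was highest in melanocyte-like (43.6 CPM) and endothelial-like cells (15.7 CPM). Cdh10 had a ratio of 0.151 (0.107–0.208) with 12.8 CPM in glial-like and 12 CPM in mesenchymal cell-like cells. Cdh24 was low everywhere, at no more than 15.8 CPM in any class, and was not called. The low-count Cdh7, Cdh17, Cdh22, Cldn13 and Cldn19 were called lower too, with ratios of 0.287, at most 0.378, 0.462, at most 0.416 and 0.347; Cdh22 was within 2-fold in 7 of 17 alternatives, Cldn13 in 3 of 13, Cdh7 in 2 of 17 and Cdh17 and Cldn19 in 1 of 17 each.

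The share of cells with a UMI was compared after every cell had been thinned to 1500 UMIs, because hair cell-like cells held more UMIs than supporting cell-like cells. An Epcam UMI was then found in 98 of 202 hair cell-like cells at E14 (48.5%, exact 95% binomial interval 41.4–55.6), in 784 of 894 supporting cell-like cells (87.7%, 85.4–89.8) and in 698 of 745 nonsensory epithelial-like cells (93.7%, 91.7–95.3). Cell types that should lack Epcam set the background from free RNA. It was 2.96% in immune-like cells (6 of 203) and 8.47% in red blood cell-like cells (5 of 59), so that all 3 epithelial-like classes were above it at E14. Before thinning the median was 2875 UMIs in immune-like, 13057 in red blood cell-like and 14208 in hair cell-like cells. Free RNA can therefore weigh differently in these classes as well.
At P2 the shares were 47.9% (44.2–51.6) in hair cell-like, 97.6% (96.2–98.6) in supporting cell-like and 98.2% (93.7–99.8) in nonsensory epithelial-like cells. The share was 52.4% (11 of 21, 29.8–74.3) in the mesenchymal cell-like cells, and the hair cell-like share was not above it. The mesenchymal cell-like cells held far fewer UMIs before thinning, so free RNA can weigh differently in these classes. Whether their share is a background for the hair cell-like cells was not tested. Before thinning Epcam had 50 UMIs in 32 mesenchymal cell-like cells and 5836 UMIs in 726 hair cell-like cells. Without thinning, the P2 shares were 99.0% in hair cell-like cells with a median of 16849 UMIs and 59.4% in mesenchymal cell-like cells with a median of 1768. In the P2 mesenchymal cell-like cells Cldn9 had 11 UMIs against 50 of Epcam and in supporting cell-like cells 17.8% of the UMIs of Epcam, whereas in hair cell-like cells it had 108%. The same percentages for Cldn3 were 50.0%, 25.7% and 63.5%. The part of free RNA in the hair cell-like levels was not tested.

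Hair cell-like cells were compared with supporting cell-like cells within each library, to ask how the junction genes differ between the cell types that make up the sensory mosaic. At E14, 3 of 26 members were at least 2-fold higher in hair cell-like cells, against 17.3% of all genes counted, and 13 were at least 2-fold lower, against 20.9%. At P2, 4 of 25 were higher, against 20.7%, and 14 lower, against 22.1%. The same 13 members were lower at both ages, Epcam, Cdh1, Cdh3 and 10 claudins, and Cdh15 and Cldn14 were higher at both.
Cldn14, the claudin mutated in a recessive deafness, was at 44.5 CPM (36.8–53.3) in hair cell-like and 3.15 CPM (2.22–4.35) in supporting cell-like cells at E14, a ratio of 14.1 (9.68–21). At P2 it was at 60 CPM (55.7–64.5) and 8.81 CPM (7.27–10.6), a ratio of 6.81 (5.58–8.37). Nonsensory epithelial-like cells were at 3.15 and 3.06 CPM. Cldn14 was therefore highest in the hair cell-like cells at each age.
Cdh15, a cadherin first known from muscle, was at 37 CPM (30–45) against 4.86 CPM (3.68–6.29) at E14, a ratio of 7.61 (5.44–10.7), and at 31.7 CPM (28.6–35.1) against 4.25 CPM (3.2–5.53) at P2, a ratio of 7.47 (5.62–10.1). Cdh18, a type II cadherin of the nervous system, was at 10.4 CPM (8.64–12.4) against 0.541 CPM (0.217–1.11) at P2, the largest ratio of a member in that comparison at 19.2 (9.05–48.7). At E14 it had 9 UMIs in hair cell-like cells and 1 in supporting cell-like cells, too few to be counted. The remaining higher members were Cldn12 at E14 (2.04 (1.34–3.07)) and Cdh22 at P2 (2.42 (1.0–6.43)), both near the 2-fold limit, and 9 of 18 alternatives put Cldn12 within it.

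The members that were lower in hair cell-like cells included the most abundant ones. Epcam had a ratio of 0.23 (0.217–0.243) at E14 and 0.178 (0.173–0.183) at P2, and Cldn7 0.229 (0.202–0.258) and 0.258 (0.242–0.276). The intervals of the Epcam ratios at the ages did not overlap. Cldn6 had ratios of 0.34 (0.292–0.394) and 0.325 (0.281–0.374), and Cldn3 of 0.44 (0.401–0.482) and 0.44 (0.424–0.458). For Cldn6 and Cldn3 the ratios at the ages were therefore alike while their levels were not.
The largest ratios were those of scarcer members. Cdh3 was at 1.89 against 51.9 CPM at E14, a ratio of 0.0363 (0.0118–0.0853), and at 1.16 against 23.5 CPM at P2, a ratio of 0.0495 (0.0268–0.0844). Cldn22 had ratios of 0.0446 (0.0163–0.0977) and 0.0999 (0.0635–0.151), and Cdh1 of 0.108 (0.0349–0.257) and 0.0999 (0.0607–0.156). Cldn4, which pairs with Cldn3 in many absorptive epithelia, had a ratio of 0.0336 (0.0123–0.0735) at E14 and of 0.483 (0.314–0.728) at P2, when its supporting cell-like level was itself low. Cldn10 and Cldn23 had ratios of 0.138 and 0.184 at E14 and of 0.0224 and 0.122 at P2. Cldn8 had no UMI in the E14 hair cell-like cells, for an upper bound of 0.14, and a ratio of 0.116 at P2. The low-count Cldn24 and Cldn11 were called at both ages, although the Cldn11 ratio at E14 turned under 2 alternatives and the Cldn24 ratio at P2 under 1, with Cdh10 called at P2 (0.115).
Cldn9 was an abundant claudin that was not called at either age. It was at 420.5 CPM in hair cell-like and 555 CPM in supporting cell-like cells at E14, a ratio of 0.758 (0.711–0.808), and at 522 and 485 CPM at P2, a ratio of 1.08 (1.04–1.11). Cdh4, which was at 109 and 94.2 CPM at E14 and 133 and 192 CPM at P2, was not called either, with ratios of 1.16 (1.01–1.32) and 0.69 (0.648–0.735). Cdh2 had ratios of 0.51 (0.45–0.576) and 0.717 (0.661–0.778), and Cdh11 of 0.644 (0.545–0.756) and 0.529 (0.482–0.581).
The E14 comparison depended on the removal of doublets. With the doublets kept, the E14 hair cell-like class held 386 cells, 5 members in place of 13 were called lower, and the ratios were 0.652 for Epcam, 0.783 for Cldn7, 0.638 for Cldn4, 4.09 for Cldn14 and 2.80 for Cdh15. The summed level of the 12 supporting cell markers was 542 CPM in hair cell-like and 3451 CPM in supporting cell-like cells at E14, and 773 and 6840 CPM at P2; the part of shared RNA in the ratios was not tested.

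**Figure D2:**
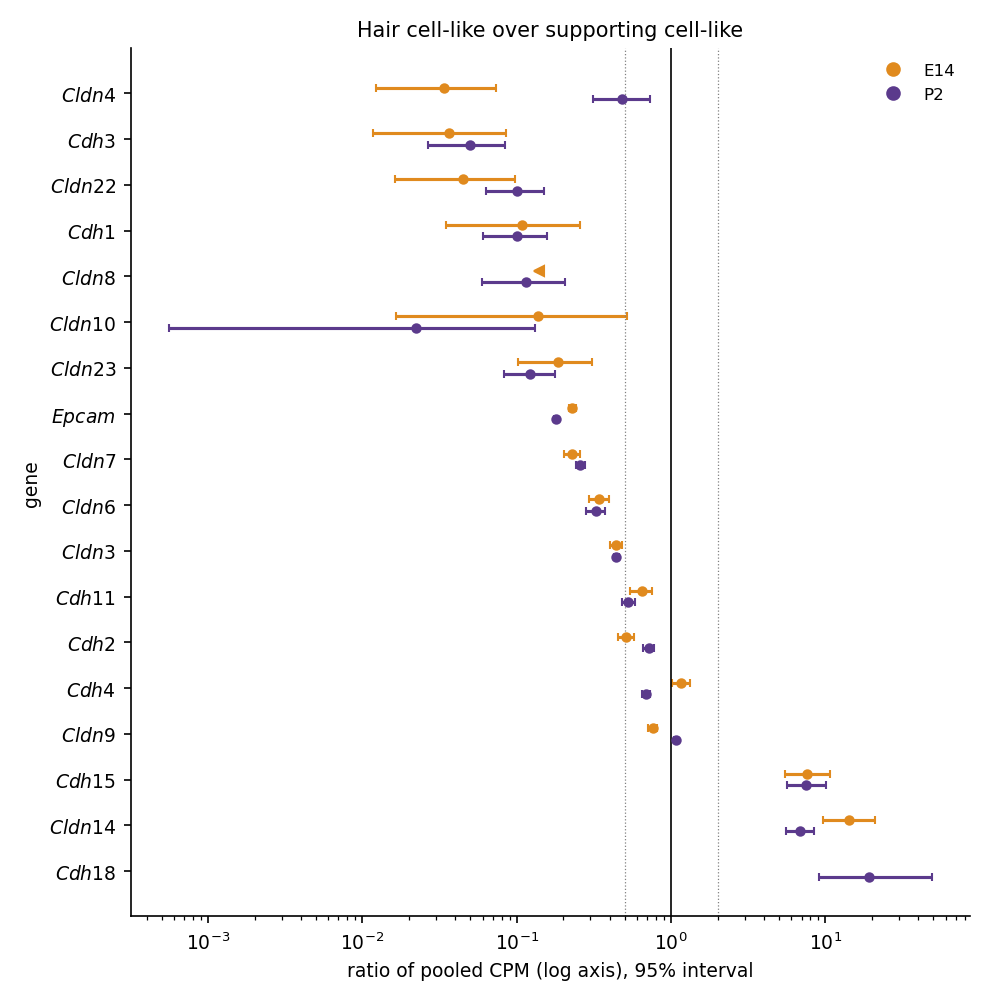
Ratio of the level in hair cell-like cells to that in supporting cell-like cells (log axis) for 18 described members at E14 (orange) and P2 (purple), with exact 95% intervals; dotted lines mark 0.5 and 2, and the arrowhead of Cldn8 marks an upper bound. Cldn14 and Cdh15 lie to the right of 2 at both ages and Epcam, Cldn3, Cldn6 and Cldn7 to the left of 0.5, with Cldn9 and Cdh4 between the lines.

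The junction genes also differed among the hair cell-like clusters, which are shown here by their leading genes. Cells of 1 library share their source, so these values are descriptions. At E14 there were 2 such clusters, of 163 cells led by Ccer2 and Grp and of 41 cells led by Lbx2 and with Ocm, which encodes oncomodulin, a calcium buffer of striolar hair cells. Cldn14 was at 18 CPM (12.7–24.8) in the former and 135 CPM (107–168) in the latter, and Cdh15 at 25.3 CPM (18.9–33.2) and 76.8 CPM (56.2–102). Cldn6 had the opposite order, with 92.1 CPM (79.4–106) and 5.01 CPM (1.03–14.6), as did Cldn3 with 227 and 81.8 CPM and Epcam with 537 and 284 CPM. Cldn9 was at 361 and 626 CPM.
At P2 there were 5 clusters. The cluster of 53 cells led by Hsd11b2 and Eya2 and that of 193 cells led by Grp and with Atoh1, the transcription factor that starts hair cell formation, had the lowest Cldn14, with no UMI and 17.6 CPM (13.6–22.5). The cluster led by Gal, of 254 cells, had 48.9 CPM (42.6–55.9), that led by Spp1 and Kcna10, of 193 cells, 123 CPM (110.3–138), and that led by Ocm, of 33 cells, 205 CPM (170.0–246). Cdh15 followed the same order, with 1.28, 10.9, 34.2, 59.6 and 60.4 CPM.
Cdh4 ran the other way, at 285, 196, 119, 43.3 and 32.8 CPM in that order, and so did Cldn3, from 452 to 46.6 CPM. Cldn6 was at 87.1 and 39.3 CPM in the Eya2 and Atoh1 clusters and at no more than 6.9 CPM in the other 3. Epcam was at 1361 CPM (1280.2–1445) in the Eya2 cluster and between 345 and 533 CPM in the other 4. That band includes the 397 CPM of the P2 mesenchymal cell-like cells. Cdh18 was at 26.6 CPM (20.7–33.6) in the Spp1 cluster and 20.7 CPM (10.7–36.2) in the Ocm cluster, at 9.42 CPM in the Gal cluster, and had 2 UMIs or fewer in the other 2. Cdh2 changed little, from 56.9 to 99.4 CPM.
Across the 5 P2 clusters the summed level of the 14 hair cell markers ran from 5688 to 13105 CPM and that of the 12 supporting cell markers from 657 to 1663 CPM; their part in the levels was not tested.

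**Figure D3:**
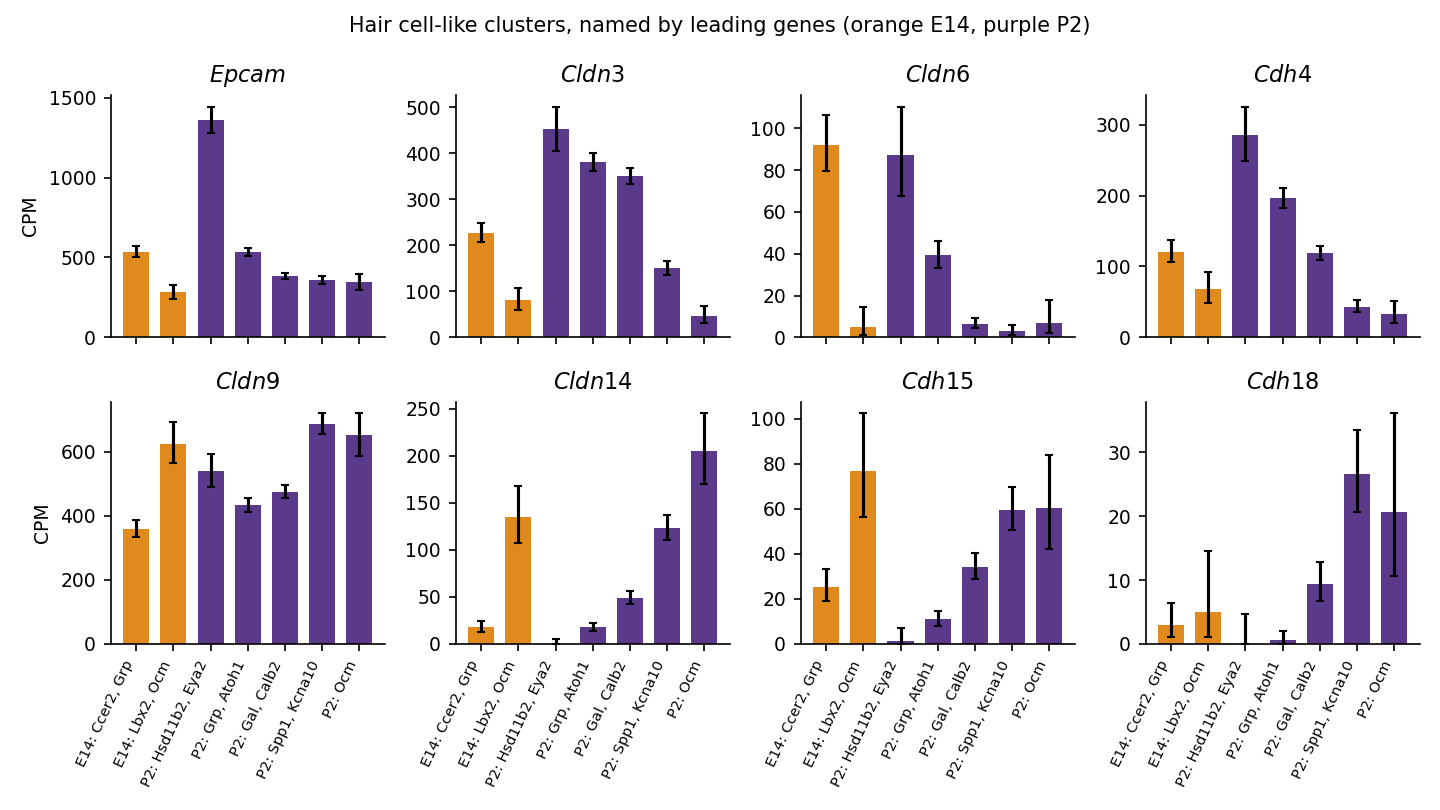
CPM of 8 members in the 2 hair cell-like clusters of E14 (orange) and the 5 of P2 (purple), labelled by leading genes, with exact 95% Poisson intervals as error bars. In both libraries Cldn14 and Cdh15 are highest in the clusters with Ocm or Spp1 among their leading genes, where Cldn3 and Cdh4 are lowest.

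Nonsensory epithelial-like cells, named from markers of the epithelium around the sensory patch such as Oc90, Lmx1a and Kcne1, were compared with supporting cell-like cells. Slc26a4, another gene of that marker list, was a leading gene or marker of some unnamed clusters. Those of 385 cells at E14 and of 275 and 237 cells at P2 were among them and did not enter this class. The results below are thus for the named clusters and not for nonsensory epithelium at large. At E14, 10 of 29 members were at least 2-fold higher in the nonsensory class, against 10.0% of all genes counted, and 5 were at least 2-fold lower, against 10.2%. At P2, 6 of 23 were higher, against 9.79%, and 5 lower, against 11.7%. Cldn4, Cldn8, Cldn10, Cldn11 and Cdh3 were higher at both ages and Cdh2, Cdh4 and Cdh15 lower at both.
Cldn8 was at 129 CPM (122–136) against 8.09 CPM (6.55–9.89) at E14, a ratio of 15.9 (12.9–19.8), and at 254 CPM (232–278) against 9.35 CPM (7.76–11.2) at P2, a ratio of 27.2 (22.2–33.4). Cldn11 had a ratio of 12.5 (9.78–16.1) at E14 and 58 (30.1–125) at P2. Among the nonsensory clusters Cldn11 was at 165 and 171 CPM in the E14 and P2 clusters that had Kcne1, a potassium channel subunit of dark cells, and Esrrb as markers, and at no more than 15 CPM in the other 4.
Cldn4 had a ratio of 2.48 (2.28–2.7) at E14 and 35.2 (27.6–45.5) at P2, with levels of 167 and 212 CPM. Cldn10, a pore-forming claudin, had ratios of 5.27 (4.02–7.0) and 5.08 (3.22–7.97). At E14 its level was 231 CPM (203–263) in the cluster of 76 cells led by Pyy and Prss56 and 4.42 and 14.7 CPM in the other nonsensory clusters, so that 1 cluster carried most of it; with doublets kept the E14 ratio was within 2-fold. Cdh3 was near the limit at E14, at 2.01 (1.82–2.22), where 13 of 18 alternatives put it within 2-fold, and at 2.39 (1.9–2.98) at P2.
At E14 Cldn1, Cdh6, Cdh9, Cdh13 and Cdh18 were higher as well, from 36 to 61 UMIs each, with ratios of 3.29, 3.3, 30.8, 6.5 and 36.9. The Cldn1 ratio turned to the other direction under 2 alternatives. At P2 Cldn22 was higher, at 3.19 (2.56–3.94).
Cdh4 showed the largest ratio the other way. It was at 3.76 CPM (2.72–5.06) against 94.2 CPM (88.8–100) at E14, a ratio of 0.0399 (0.0287–0.0541), and at 7.64 CPM (4.28–12.6) against 192 CPM (185–199.7) at P2, a ratio of 0.0398 (0.0222–0.0658). Cdh2 had ratios of 0.237 (0.216–0.26) and 0.276 (0.21–0.357), and Cdh15 of 0.108 (0.038–0.25) and 0.36 (0.072–1.11), the latter from 3 UMIs in the nonsensory class. Cldn9 was lower at E14, at 0.327 (0.311–0.344), and level with the supporting cell-like cells at P2, at 0.945 (0.88–1.01). Cdh20 was lower at E14 (at most 0.118), and Cdh11 and Cldn14 at P2 (0.207 and 0.347). The epithelial core otherwise differed little, with ratios at E14 and P2 of 0.989 and 0.901 for Epcam, 0.859 and 0.948 for Cldn7, 1.45 and 1.54 for Cldn3 and 1.24 and 1.87 for Cldn6.

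**Figure D4:**
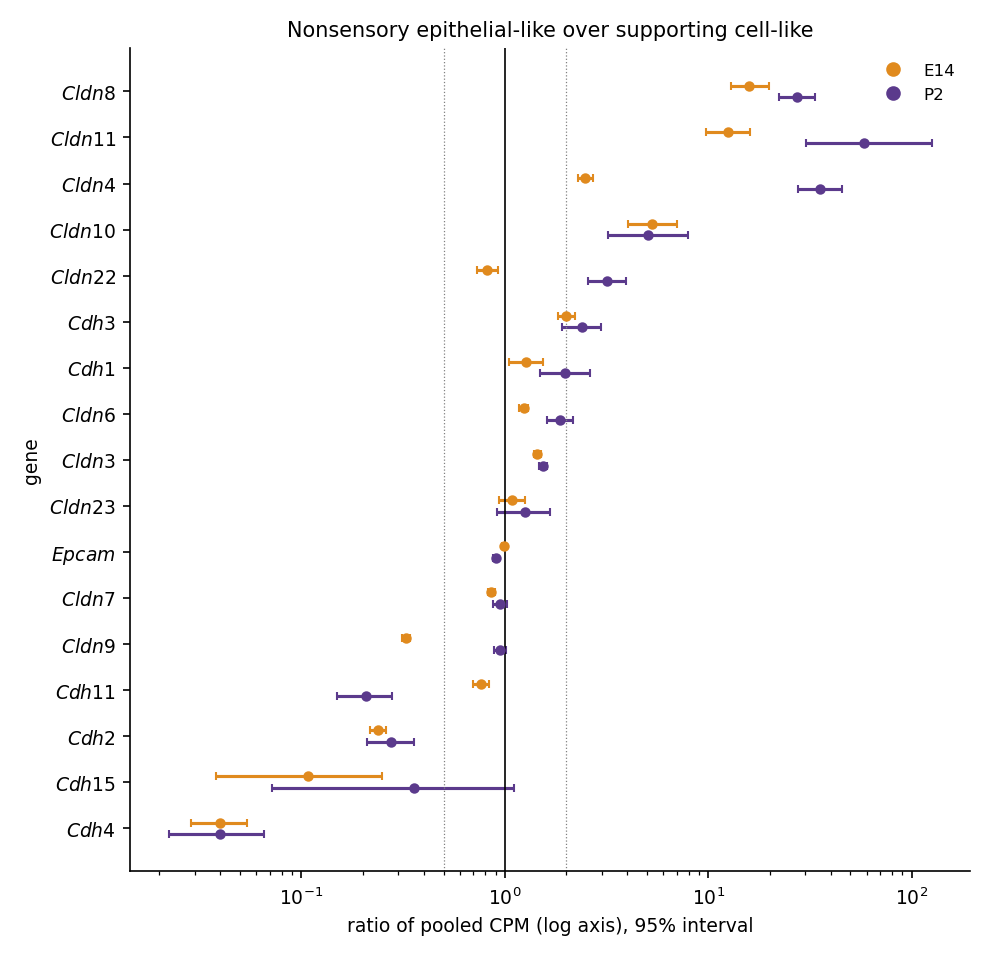
Ratio of the level in nonsensory epithelial-like cells to that in supporting cell-like cells (log axis) for 17 described members at E14 (orange) and P2 (purple), with exact 95% intervals; dotted lines mark 0.5 and 2. Cldn8, Cldn11, Cldn4 and Cldn10 lie to the right and Cdh4, Cdh2 and Cdh15 to the left at both ages.

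Cldn22 was highest outside the named classes. At E14 it was at 50.7 CPM in supporting cell-like and 41.6 CPM in nonsensory epithelial-like cells, but at 357 CPM (333–382) in an unnamed cluster of 223 cells led by Ttr, Wnt4 and Otx2 and at 339 CPM (323–355) in an unnamed cluster of 385 cells led by Slc26a4. At P2 the highest level, 312 CPM (295–329), was in an unnamed cluster of 275 cells led by Penk and with Slc26a4, which encodes the anion exchanger pendrin. These clusters were epithelial by Epcam, at 2057, 2291 and 3615 CPM. Their Cldn10, Cldn8 and Cldn4 were at 50.8, 30.4 and 126 CPM in the Ttr cluster and 6.11, 17.3 and 210.2 CPM in the E14 Slc26a4 cluster.
Cldn22 lies on the strand opposite to Wwc2, and in the GENCODE M21 annotation all 995 of its exon bases overlap exons of that gene, and the sources used here do not state whether strand was used in counting. Wwc2 was at 53.2 CPM in the E14 Slc26a4 cluster and 78.7 CPM in the Ttr cluster. It was at 70.5 CPM in the E14 hair cell-like cells, where Cldn22 was at 2.26 CPM, and at 82.4 CPM in the P2 hair cell-like cells, where Cldn22 was at 2.08 CPM. In E14 mesenchymal cell-like cells Wwc2 was at 34.6 CPM and Cldn22 at 0.93 CPM. The part of Wwc2 reads in the Cldn22 counts was not tested. Overlaps with counted antisense genes were smaller for Cldn3 (40 exon bases), Cdh8 (23), Cdh9 (224) and Cldn19 (90).

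The ages were compared within each class, with 1 library at each age. In hair cell-like cells 1 of 21 members was at least 2-fold higher at P2 than at E14, against 9.05% of all genes counted, and 4 were at least 2-fold lower, against 6.16%. In supporting cell-like cells 2 of 26 were higher, against 12.2%, and 11 lower, against 10.1%. In nonsensory epithelial-like cells 2 of 27 were higher, against 11.1%, and 8 lower, against 11.4%.
Cldn6 and Cdh24 were lower at P2 in all 3 classes. Cldn6 was at 72.4 CPM at E14 and 21 CPM at P2 in hair cell-like cells, a ratio of 0.29 (0.24–0.352). Its levels in the hair cell-like clusters were 92.1 CPM (163 cells) and 5.01 CPM (41 cells) at E14. At P2 they ran from 3.04 to 87.1 CPM over 5 clusters, with a median of 6.9 CPM and the highest in the cluster of 53 cells. The part of this mix of clusters in the ratio was not tested. Cldn6 was at 213 and 64.7 CPM in the supporting cell-like class (0.304 (0.281–0.329)), and at 263 and 121 CPM in nonsensory epithelial-like cells, a ratio of 0.461 (0.402–0.526). Cdh24 was below 10 CPM in these classes and had ratios of 0.246, 0.479 and 0.173.
Cldn4 was lower at P2 in the supporting cell-like cells, where it was at 67.3 CPM (62.7–72.2) at E14 and 6.03 CPM (4.76–7.52) at P2, a ratio of 0.0895 (0.070–0.113). In the nonsensory epithelial-like cells it was at 167 and 212 CPM, a ratio of 1.27 (1.14–1.41) that was not called. The intervals of these ratios do not overlap, although a difference between the classes was not tested over libraries. Summed over the 11 markers of the nonsensory epithelium, the supporting cell-like class was at 2606 CPM at E14 and 1985 CPM at P2, and the part of such cells in the Cldn4 ratio was not tested. Among the 4 E14 supporting cell-like clusters Cldn4 lay between 44.6 and 70.4 CPM.
Other members lower at P2 in supporting cell-like cells were Cldn11 (0.126 (0.0579–0.245)), Cldn22 (0.41 (0.354–0.474)), Cdh3 (0.453 (0.393–0.52)), Cldn1 (0.0477), Cldn24 (0.34), Cdh6 (0.194), Cdh8 (at most 0.181) and Cdh20 (0.419). The summed mesenchymal cell markers in this class were 888 CPM at E14 and 14.1 CPM at P2, and their part in these ratios was not tested. In nonsensory epithelial-like cells Cdh11 was lower, at 0.284 (0.204–0.386), with summed mesenchymal cell markers of 459 and 72.8 CPM, as were Cldn1, Cdh6, Cdh9, Cdh13 and Cdh18 on 1 to 3 UMIs at P2. In hair cell-like cells Cldn23 (0.485 (0.256–0.96)) and Cdh20 (0.343 (0.138–0.898)) were also lower. With doublets kept 15 members in place of 4 were lower in hair cell-like cells.
Few members were higher at P2. Cdh4 was higher in supporting cell-like cells, at 94.2 and 192 CPM and a ratio of 2.04 (1.9–2.19), which 5 of 18 alternatives put within 2-fold, and in nonsensory epithelial-like cells at a far lower level (2.03 (1.05–3.73)), where 8 of 16 did so. Cldn14 was higher in supporting cell-like cells, at 2.79 (1.91–4.17), and Cdh18 in hair cell-like cells, at 3.06 (1.56–6.85). Cldn9 was higher in nonsensory epithelial-like cells, at 181 and 458 CPM and a ratio of 2.52 (2.33–2.73), which 7 of 17 alternatives put within 2-fold. Cldn3 had ratios of 1.58, 1.58 and 1.69 in hair cell-like, supporting cell-like and nonsensory epithelial-like cells, and Epcam of 1.01, 1.3 and 1.18, none of them called. Cdh2 had ratios of 0.735, 0.523 and 0.609.

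**Figure D5:**
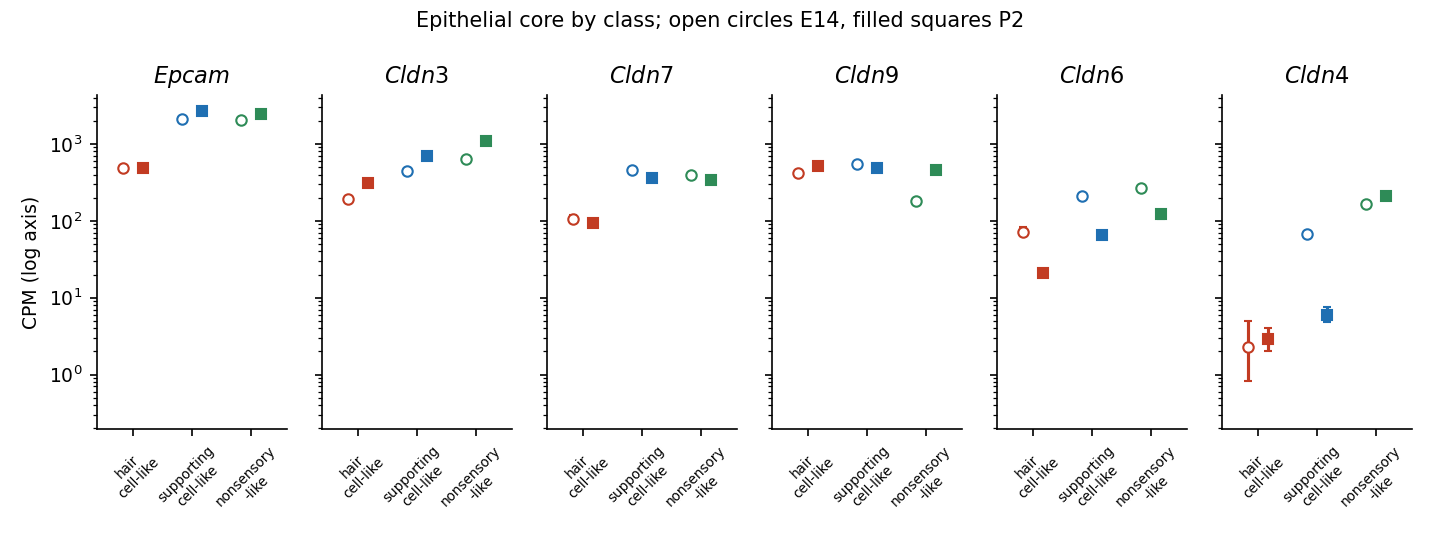
CPM (log axis) of 6 epithelial members in hair cell-like (red), supporting cell-like (blue) and nonsensory epithelial-like cells (green) at E14 (open circles) and P2 (filled squares), with exact 95% Poisson intervals, most of them smaller than the symbols. Cldn6, pooled over the clusters of a class, is lower at P2 in each class, and Cldn4 in the supporting cell-like class is at 67.3 CPM at E14 and 6.03 CPM at P2.

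E-cadherin and N-cadherin UMIs were found in a minority of cells at the thinned depth. After thinning to 1500 UMIs a Cdh1 UMI was found in 0 of 202 E14 hair cell-like cells, of which 3 counts would be 1.49%, in 3.13% (2.09–4.49) of supporting cell-like and 3.22% (2.07–4.76) of nonsensory epithelial-like cells, and in 0.799% (0.540–1.14) of mesenchymal cell-like cells. At P2 the shares were 0.138%, 2.65% and 1.79% in the epithelial-like classes in that order. At full depth the Cdh1 shares were 2.45% (5 of 204), 12.7% and 25.2% at E14 and 2.75%, 24.5% and 32% at P2. A Cdh2 UMI was found in 15.3% (10.7–21.1) of hair cell-like and 21.9% (19.3–24.8) of supporting cell-like cells at E14 and in 11.6% (9.35–14.1) and 15.9% (13.3–18.9) at P2, against 0.493% of immune-like cells. At full depth a Cdh2 UMI was in 69.1% of hair cell-like cells at E14 and 69.4% at P2, and in 48.8% and 70.5% of the supporting cell-like class. In nonsensory epithelial-like cells the thinned Cdh2 share was 6.71% (5.02–8.75) at E14 and 9.82% (5.01–16.9) at P2. Both transcripts were found in 5 of 894 supporting cell-like cells at E14 and 4 of 678 at P2. Of the 6 pairs of gene and age, 4 had a supporting cell-like share above the hair cell-like share with intervals apart, those of Epcam and Cdh1 at both ages. Without thinning the supporting cell-like share of Epcam at E14 (86.8%, median of 4338 UMIs) was below that of hair cell-like cells (94.6%, median of 14208 UMIs), although the CPM was higher.

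Partners of the members were taken from 5 lists with 61 genes. Over all genes counted, 20.9% were higher and 14.9% lower in epithelial-like than in other cells at E14. In hair cell-like over supporting cell-like cells these shares were 17.3% and 20.9% at E14 and 20.7% and 22.1% at P2. In nonsensory epithelial-like over supporting cell-like cells they were 10.0% and 10.2% at E14 and 9.79% and 11.7% at P2. Counts of a list near these shares are not a result about the list. The scaffold, junction adhesion and polarity genes of tight junctions made up a list of 20. Of these, 12 were at least 2-fold higher in epithelial-like than other cells at E14 and 3 lower (median log2 ratio 2.83). The highest levels in epithelial-like cells at E14 were those of F11r, which encodes the adhesion molecule JAM-A (85.8 CPM, ratio 18.1 (15.5–21.3)), and Crb3, a subunit of the apical Crumbs complex (64.6 CPM, 101 (66.8–159)). Marveld3 (85.5), Ildr1 (55.5), Ocln, occludin (49.1), Cgn, cingulin (24.6), Lsr (22.6), Marveld2 (20.7), Tjp3 (18.5), Pard6b (11.8) and Patj (4.28) were more than 4-fold higher, and Ildr2 (0.211) and Jam2 (0.191) more than 4-fold lower. In hair cell-like over supporting cell-like cells 7 were lower and none of the 20 higher at E14, and 7 were lower and 3 higher at P2, with Cgnl1, paracingulin, at 0.0777 and 0.0576, and at P2 Jam2 at 0.137 and Ildr2 at 4.57. The E14 value of Cgnl1 rests on 1 UMI in hair cell-like cells. Ildr1, another deafness gene of tricellular junctions, was at 35.4 and 35.4 CPM at E14 and was not called. In nonsensory epithelial-like over supporting cell-like cells Cgnl1 was at 6.28 at E14, where 2 of the list were higher and 3 lower, and 4 were higher and 1 lower at P2.
The list of cadherin-catenin and nectin partners had 13 of 14 genes counted, of which 6 were higher in epithelial-like cells and none lower by 2-fold (median log2 ratio 0.98). Ctnnb1, beta-catenin, was at 241 CPM in epithelial-like cells and Afdn, afadin, at 137 CPM. Nectin4 (12.9), Plekha7 (6.4), Ctnna2 (4.66) and Nectin1 (4.08) were over 4-fold higher. Nectins are adhesion molecules that pair across unlike cells, and nectin-1 and nectin-3 set the checkerboard of sensory epithelia. Nectin1 favoured the hair cell-like class, at 76.9 against 14.8 CPM at E14 (5.19 (4.22–6.39)) and 54.4 against 13.1 CPM at P2 (4.14 (3.49–4.93)). Nectin3 had the opposite order, at 20.7 against 61.9 CPM at E14 and 24.9 against 136 CPM at P2 (0.183 (0.162–0.207)), and Nectin4 was at 0.16 and 0.167, the former from 3 UMIs in hair cell-like cells. Ctnnd2, a catenin of the nervous system, was higher in hair cell-like cells, at 6.0 and 4.22. In all, 3 of 13 were higher and 4 lower in hair cell-like cells at each age, near the shares over all genes. In nonsensory epithelial-like cells none was higher, and 2 at E14 and 3 at P2 were lower, with Nectin3 at 0.232 at P2.
Desmosome genes were epithelial, with 8 of 8 genes counted higher (median log2 ratio 6.07), among them Dsp, desmoplakin (44.2 CPM, 144 (80.1–289)), Pkp3, a plakophilin (19.2 CPM, 32.8 (21.2–53.5)), Dsc2 (159), Ppl (84.1), Pkp1 (81.1), Pkp2 (55.8) and Dsg2 (48.4). In hair cell-like cells 4 of 7 were lower than in supporting cell-like cells at E14 and 5 of 7 at P2, with Dsp at 0.0817 and 0.169, Pkp3 at 0.137 and 0.106 and Dsg2 at 0.17 and 0.142. In nonsensory epithelial-like cells 4 of 8 were higher at E14, and 5 higher and 1 lower at P2, with Pkp1 at 23 and 145, from 5 and 2 UMIs in supporting cell-like cells.
All 5 EpCAM partners were higher in epithelial-like cells (median log2 ratio 6.36), the protease inhibitors Spint2 (819 CPM, 17.8 (16.9–18.7)) and Spint1 (55.3 CPM, 94.4 (61.5–153)), and the proteases Prss8 (68.3) and St14, matriptase (82.3), among them. In hair cell-like over supporting cell-like cells 1 of the 5 was called at E14, and at P2 1 was higher and 3 were lower. In nonsensory epithelial-like over supporting cell-like cells none was called, with 5 counted at E14 and 4 at P2.
Of 12 regulators of the epithelial and mesenchymal states, 7 were higher in epithelial-like cells and 5 lower (median log2 ratio 3.24). The splicing factor Esrp1 (42.5 CPM, 66.2 (43.9–105)) and the Grainyhead-like factor Grhl2 (27.3 CPM, 37.6 (25.5–58)) had the highest levels, and Ovol2 (175), Esrp2 (29.6), Ovol1 (23.6), Grhl1 (19.4) and Grhl3 (4.58) were higher too. The mesenchymal factors Twist2 (0.027), Zeb2 (0.0393), Zeb1 (0.048), Snai2 (0.138) and Snai1 (0.234) were lower. In hair cell-like over supporting cell-like cells 6 were lower and 3 higher at E14, and 5 lower and 2 higher at P2. Grhl2 was at 0.135 and 0.145, Esrp1 at 0.137 and 0.133 and Ovol2 at 0.036 and 0.219, with Twist2 at 0.138 at E14 and Grhl1 at 0.123 and Snai2 at 0.0358 at P2. In the hair cell-like cells Ovol2 and Twist2 had 1 UMI each at E14 and Snai2 had 1 UMI at P2. Zeb1 was higher in hair cell-like cells, at 2.66 at E14 and 5.11 at P2. In nonsensory epithelial-like over supporting cell-like cells 1 was higher and 5 lower at E14, with Grhl3 at 0.0366, and 2 were higher and 1 lower at P2, with Grhl1 at 0.116. These values of Grhl3 and Grhl1 rest on 1 and 2 UMIs in the nonsensory class.
The partners were also compared between the ages. In hair cell-like cells 6 of 52 were higher (11.5%, all genes 9.05%) and 4 lower (7.69%, all genes 6.16%), namely 2 tight junction genes higher and 1 lower, 1 catenin or nectin gene and 1 desmosome gene higher, 1 EpCAM partner lower, and 2 regulators each way, with Zeb2 at 0.0456 and Ovol2 at 5.29, the latter from 24 UMIs against 1. In supporting cell-like cells 7 of 56 partners were higher (12.5%, all genes 12.2%) and 6 lower (10.7%, all genes 10.1%), with Zeb2 and Twist2 without a UMI at P2 and ratios of at most 0.0756 and at most 0.085. The summed mesenchymal cell markers were 888 CPM at E14 and 14.1 CPM at P2 in supporting cell-like cells. In hair cell-like cells they were 127 and 5.48 CPM. The part of mesenchymal RNA in the Zeb2 and Twist2 ratios was not tested. In nonsensory epithelial-like cells 7 of 55 were higher (12.7%, all genes 11.1%) and 3 lower (5.45%, all genes 11.4%), with Zeb1 at 9.99, from 12 UMIs against 7.

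The genes whose pattern over the 56 clusters of both libraries was most like that of Epcam included the claudins that form its epithelial set. By Pearson correlation of log2(CPM + 5) over 14402 genes, given as a description since clusters of 1 library share cells, depth and free RNA, the nearest were Cldn7 (0.979), Cldn3 (0.974), Krt8 (0.958), Spint1 (0.947), Krtcap3 (0.946), Meis2 (0.932), Bspry (0.932) and Prss8 (0.931). Among members Cldn9 came at rank 18 (0.901), Cldn6 at 35 (0.861), Cldn23 at 55 (0.846), Cdh3 at 214 (0.746), Cldn4 at 337 (0.697) and Cdh1 at 342 (0.696). Cldn14 and Cdh15 came at ranks 4215 (0.269) and 4849 (0.227), and Cdh2 at 2199 (0.421).

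The remaining 20 members were scarce. A group of 10 had at least 10 UMIs in a class but did not reach the limits for a description by class (Cldn1, Cldn12, Cldn19, Cldn24, Cdh7, Cdh8, Cdh9, Cdh17, Cdh20 and Cdh22), with between 14 and 947 UMIs in both libraries and a highest class level between 0.377 and 15.9 CPM. Cldn24 had most of its 947 UMIs outside the named classes. The other 10 had under 10 UMIs in every class, with totals of 28 for Cldn15, 13 for Cldn20, 11 for Cldn13, 9 for Cdh16, 9 for Cdh26, 5 for Cdh12, 5 for Cldn2 and 0 for Cldn16, Cldn17 and Cldn18. A total of 0 allows up to 3 UMIs. Of the Cldn13 UMIs, 9 were in the red blood cell-like cells, at 10.5 CPM.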

How the data were processed

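Sensory epithelia of the mouse utricle were profiled by droplet single-cell RNA sequencing at E14 and P2, with 1 library per age (122892080 and 57003553 UMIs). The authors deposited raw UMI counts per gene and barcode, made with Cell Ranger 3.1.0 on GRCm39 by the paper's methods; the labels name mm10 besides. Whether intronic reads and strand were used is not given in the sources used here. Seurat 4.1.1, also named in the submitters' processing notes, was not applied to the counts.

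Barcodes below 500 genes or 1000 UMIs, or with over 15% of UMIs from mitochondrial genes, were dropped, and putative doublets, found by comparison with simulated ones, were removed at 0.8% per 1000 barcodes (1450 at E14, 204 at P2). Each library was clustered from 2000 variable genes without the members and partners (30 principal components, 15 neighbours, Leiden resolution 1). A cluster was named from at least 3 markers of a class. The marker lists were written first, and the scoring rule was set after the marker tables had been seen. Members and lists were chosen with earlier results of these data known. UMIs were summed over a class and given as CPM with exact Poisson 95% intervals, and ratios with exact conditional binomial ones, which cover counting error only. The cells of 1 library are not replicates, so no test was run. Members with at least 100 UMIs and 10 CPM in a class at 1 age were described by name, the called members were named in each comparison, and of partners the 2 with the highest epithelial-like level and those over 4-fold apart; Cldn9, Cdh2, Cdh4 and Cdh11 were given also where not called, and Nectin3, Ildr1 and Zeb1 outside that rule were chosen after their values were seen. A few partner genes that the rule would name are not reported here. Members were located in GENCODE M21. Of the alternatives, 16 were listed at the start and 4 were chosen after seeing the data. Clustering used leidenalg 0.10.2, igraph 0.11.9 and scikit-learn 1.9.0, intervals scipy 1.17.1, tables pandas 2.3.3 and numpy 2.4.6, and figures matplotlib 3.10.9, all under Python 3.11.15, and the scripts were tested on simulated data.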

Additional observations from a re-analysis of the deposited data

Results flagged for a closer look

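Cdh18, pooled over the clusters of a class, differed in direction between classes across the ages. Its log2 ratio of P2 over E14 was 1.61 in hair cell-like cells (9 UMIs at E14, 125 at P2) and -1.63 in nonsensory epithelial-like cells (36 UMIs at E14, 2 at P2), each from 1 library per age. All nonsensory UMIs of Cdh18 came from 1 of 3 clusters in either library. The level within that cluster was 7.55 CPM in the E14 library, against 4.44 CPM from the 2 UMIs of the P2 library. The part of the mix of clusters in these ratios, and the difference between the classes, were not tested.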

How the results depend on the processing

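No paired analysis was possible because each age had 1 library, and for the same reason no replicate could be left out. Of 120 called ratios, recomputed 2095 times over the alternatives, 1773 values stayed within the interval of the reported ratio, 317 moved with the same sign and 5 turned. A change of the minimum of UMIs or of the fold limit leaves a ratio as it is, so those values were fixed in advance. They are among the 1773 and among the alternatives counted for single ratios. Some other settings left a class unchanged as well, such as the P2 supporting cell-like class (682 cells) without crista-type clusters. Of the called ratios, 83 were at least 2-fold in every alternative in which they had a value and 37 were not in at least 1. With a looser cell filter (at least 200 genes and 500 UMIs, at most 25% mitochondrial UMIs) the log2 ratio of hair cell-like over supporting cell-like cells was 0.41 for Cldn11 at E14 and 0.38 for Cldn24 at P2, and that of nonsensory over supporting cell-like cells for Cldn1 at E14 was -2.96, and -2.72 at Leiden resolution 0.5. With cells assigned one by one in place of clusters the Cldn11 value was 1.12. The cause was not tested.

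Counts of called members moved by more than 1.5 times in 46 of 299 recomputations. Hair cell-like over supporting cell-like cells at E14 gave 5 lower with doublets kept (13 reported) and, with no minimum of UMIs, 13 higher (3 reported), and at P2 the last gave 9 higher (4 reported). Epithelial-like over other cells gave 6 lower with at least 50 UMIs on 1 side and 7 at 3-fold (11 reported). Nonsensory over supporting cell-like cells at E14 (10 higher and 5 lower reported) gave 8 lower with the looser filter, with resolution 0.5 and with no minimum, 6 higher with resolution 0.5, and 9 lower with clusters of 3 markers and none leading also named. At P2 (6 and 5 reported) it gave 16 higher with no minimum and 3 lower at 3-fold. P2 over E14 in hair cell-like cells (1 higher and 4 lower reported) gave 2 higher with the looser filter, the stricter filter (at least 1000 genes and 2000 UMIs, at most 10% mitochondrial UMIs), fewer and more variable genes, 3 higher with doublets kept, and 9 lower with the stricter filter and with cells in place of clusters, 15 with doublets kept, 14 with no minimum, 2 at 3-fold and 1 with 50 UMIs. In supporting cell-like cells (2 and 11 reported) it gave 1 higher with doublets kept, resolution 2, haemoglobin, mitochondrial and ribosomal genes left out of totals, shallow clusters left out, and clusters with mesenchymal markers left out, 5 with no minimum and 0 at 3-fold, and 7 lower with 50 UMIs and 6 at 3-fold. In nonsensory cells (2 and 8 reported) it gave 1 higher with both filters, doublets kept, resolution 0.5, the genes left out of totals, 50 UMIs, and shallow clusters left out, 0 with resolution 2, fewer and more variable genes and 3-fold, and 12 with no minimum, and 5 lower with 50 UMIs. Without thinning 2 in place of 4 pairs of gene and age had a higher supporting cell-like share. The nonsensory class held 393 to 886 cells at E14 (751 reported) and 82 to 353 at P2 (125 reported) over the alternatives, and the hair cell-like class 170 to 386 (204 reported) and 723 to 1544 (726 reported).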
